A study of Drosophila melanogaster with 4 samples.

Results

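CG15096, CG12773, CG8785, CG8908 and Ent3 are 5 genes of Drosophila melanogaster that encode membrane transporters of solutes. They were found by their CG numbers, the serial identifiers of fly gene annotations (CG11010 for Ent3), among the 244 genes of the authors' deposited table, and all 5 had 1 row each. That table holds genes the authors selected for a change, so a gene had to differ to be listed. The study asked how the larval airway responds when the immune deficiency (IMD) pathway, an antibacterial signalling pathway of flies, is switched on without infection. RNA from tracheae, the gas-filled airway tubes, of NP2610::UAS-PGRP-LE larvae was compared with tracheal RNA of NP2610 larvae, both at the third larval instar. NP2610 is a GAL4 driver that the design text calls specific for the larval tracheal system, and it turns on a UAS transgene for PGRP-LE, a receptor that recognises bacterial peptidoglycan. Both groups carry the driver and were raised at 22 °C for about 10 days on the same medium, and each RNA pooled 20 pairs of tracheae. The PGRP-LE larvae were F1 progeny of a cross and the controls were not, so transgene and genetic background cannot be told apart.

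Each of the 4 two-colour arrays held both RNAs, and the titles name 2 biological replicates with 1 technical replicate each. The authors' deposited table gives, per gene, a mean log2 ratio between the 2 channels, its standard deviation (SD) over spots and the number of valid spots. All SDs printed here are the authors'. The table holds no level per group and no value per array, so the values below are means over valid spots. Which arrays those spots came from, and which arrays were high or low for a gene, is not known from it. A positive ratio probably stands for more transcript in tracheae of the PGRP-LE cross, because the table's hybridisation group is named after the cross and channel 1 held that cross on all arrays, but the file does not state the numerator. "Higher" is used in that sense. PGRP-LE had no row, so the overexpressed gene gives no check of the labels here. Of a list of 8 antimicrobial peptide and IMD pathway genes, the other 7 were in the authors' deposited table, AttC, AttA, CecA2, PGRP-SD, Def, Rel and DptB, and all 7 had positive ratios. That list was chosen with earlier results known and 76.6% of the table is positive, so it does not settle the direction. In the bulk RNA of a dissected tissue, more cells of a type and more RNA per cell cannot be told apart.

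Solute transporters are proteins that carry ions, nutrients and other small molecules across membranes. Sodium-coupled and cation-chloride symporters use ion gradients that the sodium pump sets up, amino acid transporters feed cell growth, equilibrative nucleoside transporters let nucleosides pass down their gradient, and ATP-binding cassette (ABC) transporters spend ATP to move lipids and other compounds. In airways, ion transport takes part in clearing liquid from the lumen, and in the fly some ABC transporters help to build the barrier of the lining. The 5 genes are given below in the order of ion symporters, amino acid, nucleoside and ABC transporters.

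All 5 transporter genes were higher in PGRP-LE tracheae in the authors' deposited table, as were 76.6% of its 244 genes. Read the other way, the 5 would all be lower, and 23.4% of the table higher. The direction of the 5 is therefore close to that of the table as a whole, and nothing particular to transporters follows from it. CG15096, annotated as a sodium symporter, stood apart in size at 1.93 on the log2 scale in the authors' deposited table, and the remaining 4 lay between 0.81 and 1.10. The median of the 5 was 1.04, against 0.81 for the other 239 genes and 0.91 for the other 182 higher genes of the authors' deposited table. A log2 ratio of at least 1, a doubling, was reached by 3 of the 5, against 32.4% of all genes in the authors' deposited table. Among the other 182 higher genes of that table, 76 reached this ratio. With the ratio turned, 0 of the 5 and 16 of the 244 genes would reach it.

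**Figure D1:**
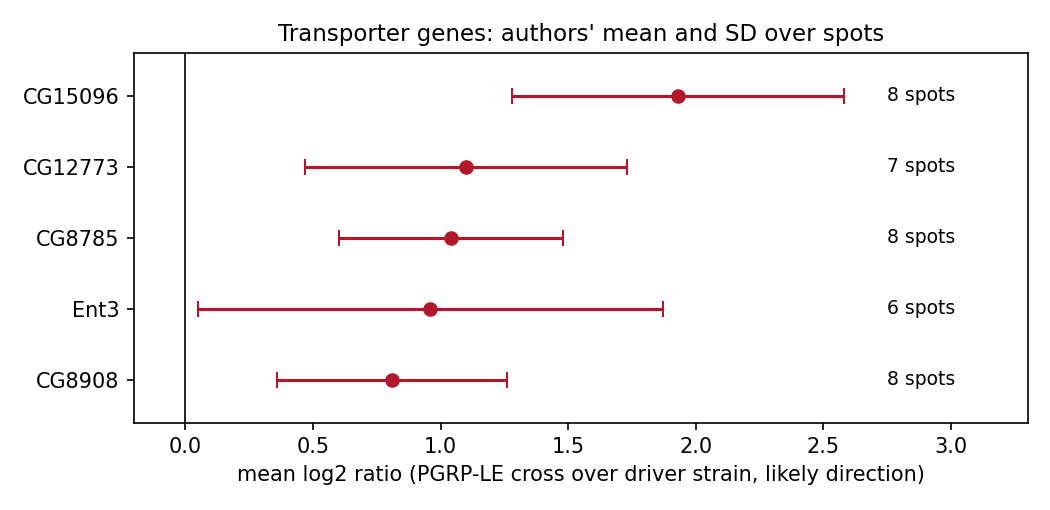
Mean log2 ratio (points, horizontal axis) and the authors' SD over spots (bars, 1 SD each way) of the 5 transporter genes, with the number of valid spots at the right. CG15096 lies highest at 1.93, the other 4 genes overlap each other, and the bar of Ent3 reaches down to 0.05.

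CG15096 is annotated with sodium symport and the transport of phosphate, cations and carbohydrate, and belongs to the SLC17 family of sodium-coupled phosphate and organic anion carriers. Its mean log2 ratio in the authors' deposited table was 1.93 (SD 0.65, 8 spots), a 3.81-fold difference. One SD either way spans 1.28 to 2.58 on the log2 scale, or 2.43-fold to 5.98-fold, in the authors' deposited table. Counted from the highest ratio, the gene ranked 4 of 244, directly between Cpr62Ba at 1.94 and Ddc at 1.92 in the authors' deposited table. The antimicrobial peptide genes AttC at 2.02 and AttA at 1.84 ranked 2 and 7. The SD of CG15096 was above the median of 0.485 among the 134 genes with 8 valid spots in the authors' deposited table. Relative to its large mean the spread was small, with a coefficient of variation, the SD divided by the mean, of 0.34, against a median of 0.585 over the authors' deposited table.

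CG12773 is annotated as a chloride symporter and cation transporter and belongs to the SLC12 family of cation-chloride cotransporters. Its mean log2 ratio in the authors' deposited table was 1.10 (SD 0.63, 7 spots), a 2.14-fold difference. One SD either way spans 1.39-fold to 3.32-fold in the authors' deposited table, and the gene ranked 59 of 244. Its SD was close to the median of 0.60 among the 31 genes with 7 valid spots in the authors' deposited table.

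CG8785 is annotated with amino acid transport and belongs to the SLC36 family of proton-coupled amino acid transporters, which in the fly includes the growth regulator path. In the authors' deposited table its mean log2 ratio was 1.04 (SD 0.44, 8 spots), a 2.06-fold difference. One SD either way spans 1.52-fold to 2.79-fold, and the gene ranked 70 in the authors' deposited table. With CG15096 it was one of 2 transporter genes whose mean was over 2 times its SD, which held for 33.2% of all genes in the authors' deposited table.

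Ent3 encodes an equilibrative nucleoside transporter, which lets nucleosides cross the membrane down their gradient. The authors' deposited table gave it a mean log2 ratio of 0.96 (SD 0.91, 6 spots), a 1.95-fold difference. One SD either way spans 1.04-fold to 3.66-fold, so the lower end lies almost at no difference. Its coefficient of variation of 0.95 shared rank 5 of 244 with 1 other gene in the authors' deposited table, where the largest was 0.97. The SD of Ent3 was also above the median of 0.59 among the 73 genes with 6 valid spots in the authors' deposited table. Its mean equalled that of Rel, which encodes the NF-kappa B factor Relish at the end of the IMD pathway, at 0.96 (SD 0.70, 13 spots) in the authors' deposited table.

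CG8908 is annotated as part of an ABC transporter complex and belongs to the A subfamily of ABC transporters, whose best known mammalian members move lipids. Its mean log2 ratio in the authors' deposited table was 0.81 (SD 0.45, 8 spots), a 1.75-fold difference and the smallest of the 5. One SD either way spans 1.28-fold to 2.40-fold, and the gene ranked 124 of 244, near the middle of the authors' deposited table. The SDs of CG8908 and CG8785 lay just below the median of 0.485 among genes with 8 valid spots in the authors' deposited table, so both varied about as much as genes measured on as many spots.

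**Figure D2:**
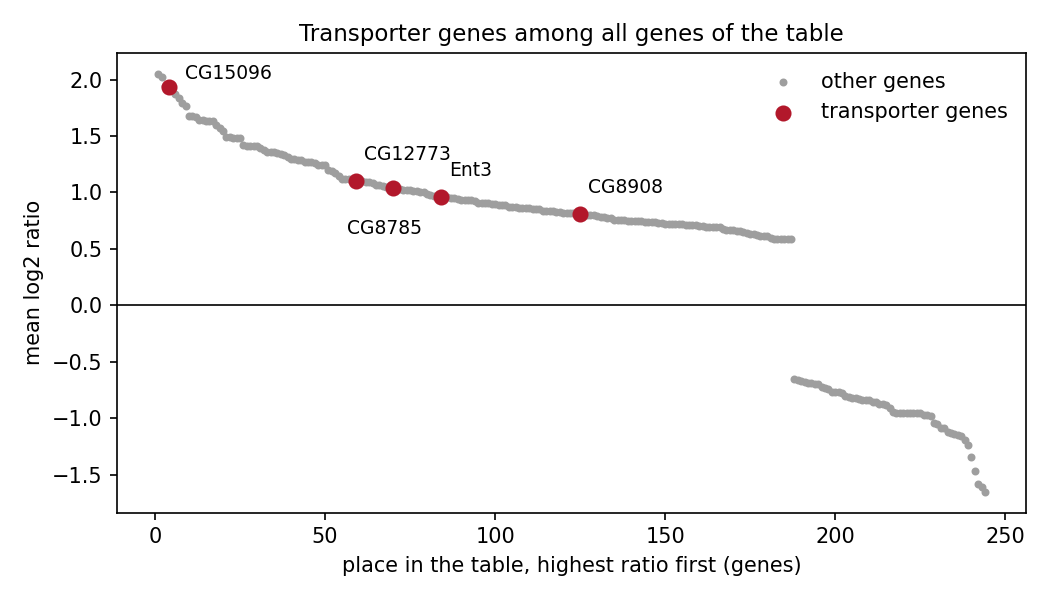
Mean log2 ratio (vertical axis) of all 244 genes of the deposited table, ordered from the highest to the lowest ratio (horizontal axis), with the 5 transporter genes as large red points. CG15096 is at rank 4, and the other 4 genes lie at ranks 59 to 124 among the 187 higher genes.

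The 5 ratios differed little among themselves apart from CG15096. Of 10 pairs of these genes, 6 differed by no more than the larger of their 2 SDs in the authors' deposited table, and these are all the pairs without CG15096. CG12773, CG8785, Ent3 and CG8908 lay within 0.29 of each other on the log2 scale in the authors' deposited table, so their order is not settled by these values. CG15096 exceeded each of them by 0.83 to 1.12 in the authors' deposited table. That is more than the larger SD in all 4 pairs, while the ranges of 1 SD still overlapped except against CG8908. The mean exceeded 1 SD for all 5 genes, which held for 100% of the authors' deposited table and so says nothing of these genes. Spots of 1 array share their RNAs and are not independent replicates, so no standard error or p-value was computed, and no test against 0 or between genes was possible.

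**Figure D3:**
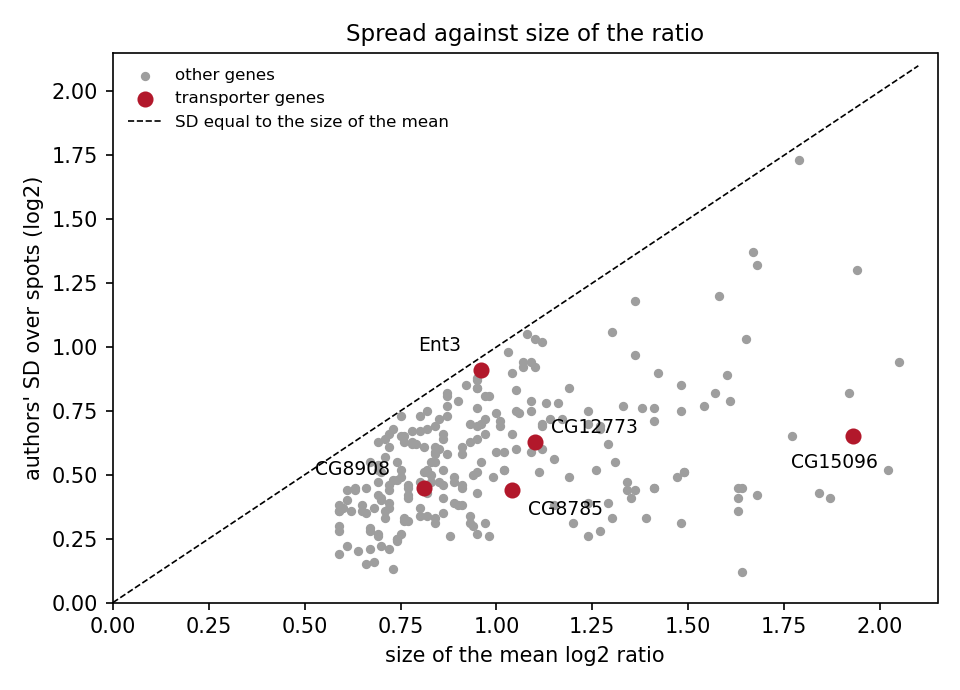
Authors' SD over spots (vertical axis, log2) against the size of the mean log2 ratio (horizontal axis) for all 244 genes, with the 5 transporter genes in red and a dashed line where both are equal. All points lie below the line, Ent3 (SD 0.91) lies close to it, and CG15096 (SD 0.65) lies far to the right of it.

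The annotation text of the 5 genes held 22 distinct Gene Ontology terms, and 4 of these were held by more than 1 of them. CG12773 and CG8785 shared amino acid transport and a further term printed without a name, and no other gene of the authors' deposited table had either. CG15096 and CG12773 shared cation transport. The general term membrane was given to 4 of the 5, while CG8908 had the ABC transporter complex instead. None of the terms names the plasma membrane, so the place of these carriers in the cell is not given by the file. All terms of the 5 genes rest on electronic annotation, sequence similarity or statements of authors. Among them 0 carry an experimental evidence code, which 40 of the 152 annotated genes of the authors' deposited table do.

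Genes that share a transport term with one of the 5 went in both directions, as the genes of the whole table did. Of 9 such genes, 6 were higher and 3 lower in the authors' deposited table, or 66.7% higher against 76.6% of all genes. Mpcp1, which encodes a mitochondrial phosphate carrier and shares phosphate transport with CG15096, stood at 1.35 (SD 0.41, 6 spots) in the authors' deposited table. The other gene with that term, the elastin-like gene Elal, was at 0.80 (SD 0.47) in the authors' deposited table. Cation transport was shared with nrv2, a beta subunit of the sodium pump that also acts in septate junctions, at 0.93 (SD 0.70, 6 spots) in the authors' deposited table.

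The ABC transporter complex term was shared by CG8908 and snu, an ABC transporter needed for the barrier of the cuticle, and by no other gene. Snu stood at 0.68 (SD 0.37, 6 spots) in the authors' deposited table, so the 2 ABC genes differed by less than either SD. Ent3 shared the broad term for nucleobase, nucleoside, nucleotide and nucleic acid transport with drongo. That gene stood at 0.67 (SD 0.29, 7 spots) in the authors' deposited table. The genes that were lower shared only general terms with CG8908. They were CG11550 at -0.72, the storage protein gene Lsp2 at -0.86 and brat, a translational repressor, at -1.04 in the authors' deposited table. Obp83b, an odorant-binding protein gene at 1.67 (SD 1.37), shared the general term transport in the authors' deposited table.

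With any term that names transport or symport, the authors' deposited table held 29 genes, of which 23 were higher and 6 lower, or 79.3% higher against 76.6% of all genes. CG15096 had the highest ratio of these 29, and with the ratio turned it would have the lowest. Without the 5 transporter genes the remaining 24 had a median of 0.74, against 1.04 for the 5, in the authors' deposited table. The 24 include all 6 lower genes, and with the sign left aside their median size was 0.815. Many of the 24 move electrons, proteins, iron or lipids, as their terms say, and are not solute carriers.

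**Figure D4:**
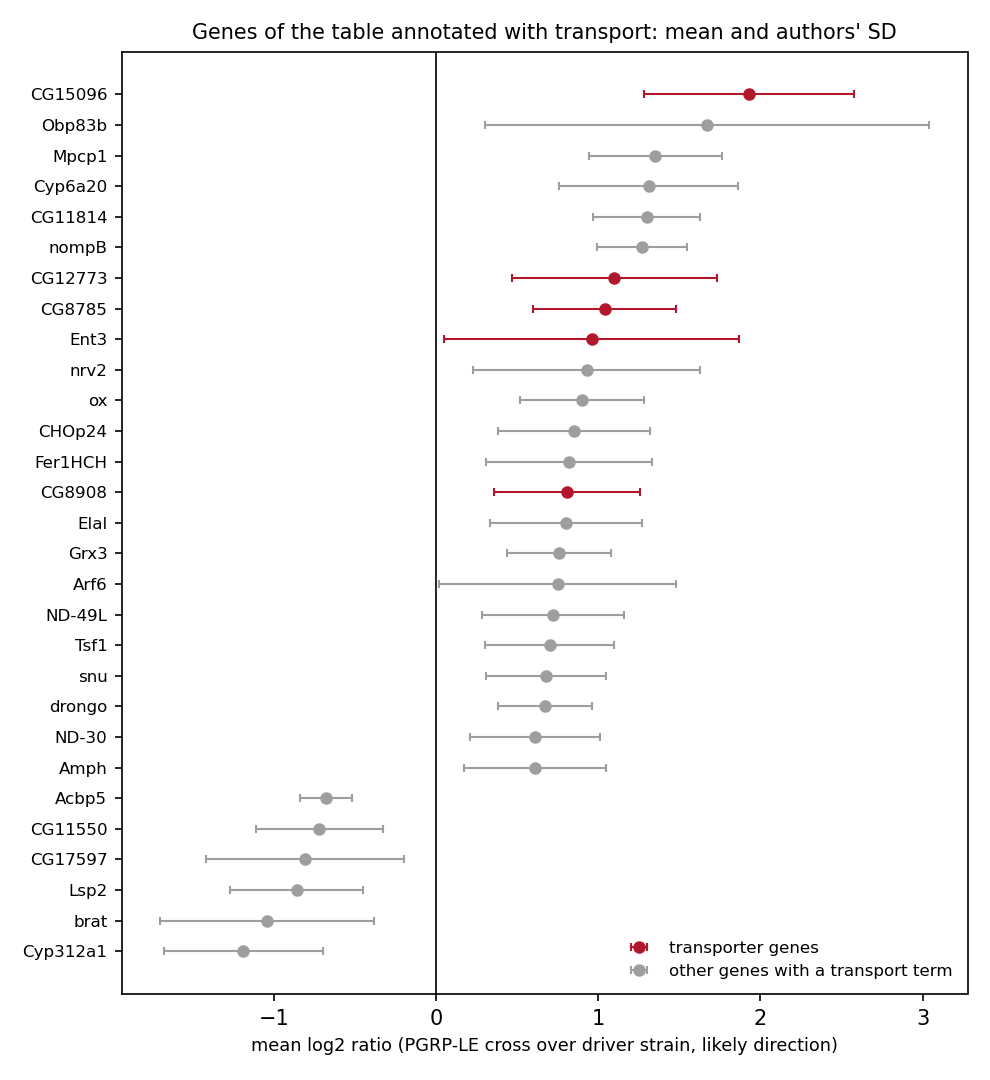
Mean log2 ratio (points, horizontal axis) and authors' SD over spots (bars, 1 SD each way) of the 29 genes whose annotation names transport or symport, highest at the top, with the 5 transporter genes in red. CG15096 is at the top, 23 genes lie right of 0 and 6 lie left of it.

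The wider transporter families were counted in the table as well. Of 98 genes in 7 lists of transporter families and ion pump subunits, 7 were in the authors' deposited table, and all 7 were higher, as 76.6% of the table was. Of these 7, 5 are the transporter genes themselves, which were in the table by choice. The number of genes on the arrays is not known here, so 7 of 98 cannot be called few or many. CG15096 was the single one of 20 SLC17 genes, CG12773 of 5 SLC12 genes, CG8785 of 14 SLC36 and SLC38 genes and Ent3 of 3 SLC29 genes. CG8908 and snu were 2 of 37 ABC genes, and nrv2 was 1 of 9 sodium and proton pump subunits. A list of 10 SLC7 amino acid transporters, which includes slif and mnd, had no gene in the table. For the 91 genes outside the table neither level nor ratio is known from it, so a family cannot be called unchanged.

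CG15096 lies beside other transporter genes in the genome. In the RefSeq gene order of Release 6, the 2 protein-coding genes before it on chromosome arm 2R are MFS15 and MFS14, named for the major facilitator superfamily of transporters, and neither was in the authors' deposited table. The 2 nearest protein-coding genes on each side of each of the 5 transporter genes were not in it either. Genes further along the arms were not looked at in this order. CG15096, CG8785 and CG8908 are on arm 2R, CG12773 is on X and Ent3 on 3L.

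CG numbers close to those of some transporter genes recurred in the authors' deposited table on other chromosome arms. Within 20 numbers of CG8908 lay 6 listed genes, 5 of them on other arms and 1, CG8910 at 1.02, on its own arm. How many listed genes lie as close to other genes of the table was not counted, so 6 cannot be called few or many. All 6 were higher, by 0.59 to 1.02 in the authors' deposited table, as was 76.6% of the table. CG12773 had 2 such genes, DptA at 1.20 and sano at -0.94 in the authors' deposited table, both on another arm. CG8785 had 1, ODA-Dnal1 at 0.83 in the authors' deposited table, on its own arm. CG15096 and Ent3 had none. Numbered between CG8785 and CG8908, but more than 20 from either, were CG8809 at 0.94, CG8834 at 0.89, CG8851 at 0.84 and gkt (CG8825) at -1.12. Whether close numbers have a part in the ratios of CG8908 and CG12773 was not tested.

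Markers of other cell types give little to set beside these ratios. Of the fixed lists, the authors' deposited table held Lsp2 of the fat body at -0.86, Jon99Fi of the gut at -1.58 and Mf of muscle at -1.09, all on the opposite side from the 5 transporter genes. These are 1 of 6, 1 of 6 and 1 of 5 markers, and 57 of all 244 genes of the table were lower. Lists of 5 blood cell, 5 salivary gland and 6 tracheal epithelium markers had none. The tissue label cannot be checked with ratios between the groups, which give no level. The blood cell genes NimB2 at 0.80 and atilla at 0.74, which the fixed list did not hold, were on the same side as the 5 transporter genes. The part of other cell types in the transporter ratios was not tested.

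Values of single arrays exist for 32448 numbered features without gene names, which could not be tied to the 5 genes. The scale, centring and direction of those values are not stated, and their medians ran from -0.41 to 0.98 over the 4 arrays. Pearson's r across features, which are not independent replicates, was -0.09 between both arrays of the first biological replicate and 0.01 between those of the second. Over all 6 pairs of arrays r lay between -0.09 and 0.11, while consecutive features of 1 array (each odd-numbered one with the next) correlated at 0.31 to 0.55.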

How the data were processed

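Tracheal RNA was hybridised to 4 two-colour arrays. Per the file headers, the authors' values are the mean of log2 ratios over spots, their SD on the log2 scale, the count of valid spots and the coefficient of variation, a ratio of SD to mean. Per the design text, the genes were selected from the output of SAM and GeneTraffic. No source used here gives the background correction, normalization, spot filter or selection thresholds. The authors' deposited table gives a mean per gene over its valid spots, and which arrays those spots came from is not known from it.

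From these values fold differences, ranges of 1 SD, ranks, counts per list and counts per Gene Ontology term were computed with Python 3.11.15, numpy 2.4.6 and pandas 2.3.3, and plotted with matplotlib 3.10.9. Names and gene order came from the RefSeq table of Release 6 through locus tags, in which all list genes matched. Coordinates were left out, since no source used here gives the genome build of the probes. Both channels of the first array are labelled Cy5, so its dye orientation is not settled. The table of values per array names no genes, so the planned limma fit and its adjusted p-values were not run, and the planned counts by size were limited to the selected table.

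The genes and lists were chosen with earlier results of these data known. Named genes are all 5 transporter genes, listed genes of their families, genes sharing a transport term with one of the 5 (a choice made after values were seen), cell type markers in the table, and AttC, AttA, DptB and Rel for direction. CecA2, PGRP-SD and Def were added with the rest of their list after values were seen. DptB stood at 0.86 in the authors' deposited table. Sano, DptA and ODA-Dnal1 were named for their close CG numbers. NimB2 and atilla, and CG8809, CG8834, CG8851, CG8910 and gkt for their CG numbers, were added after values were seen. Cpr62Ba and Ddc, named for their ranks beside CG15096, were also added after values were seen. The number of spots and arrays limits the precision. Sequences were not used here.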

Additional observations from a re-analysis of the deposited data

How the results depend on the processing

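The 5 transporter genes have 1 row each, so the reading of the ratio was the single choice that could change their values. Read as the driver strain over the PGRP-LE cross, the ratios in the authors' deposited table become -1.93 for CG15096, -1.10 for CG12773, -1.04 for CG8785, -0.96 for Ent3 and -0.81 for CG8908, their median -1.04, and the higher genes number 0 of 7 in the transporter families and 6 of 29 with a transport term. Ranks from the highest ratio then become 241 for CG15096, 184 for CG12773, 174 for CG8785, 159 for Ent3 and 120 for CG8908. The median was 1.04 over the 3 genes with at least 8 valid spots. Limiting the coefficient of variation to under 0.5 leaves 2 genes, CG15096 and CG8785, with a median of 1.49, a filter that itself favours large ratios. Of the 7 higher family genes, 3 reached a log2 size of at least 1 and 3 had at least 8 valid spots. The corresponding counts for the 23 higher genes with a transport term were 8 and 12, and 18 without electron transport terms. Filters on spots and variation, those on transport terms, and the turned ranks and shares, were chosen after seeing the data. Leaving out a replicate or an array, averaging or blocking technical arrays, centring, scaling, keeping spots apart and the array-wide count were not run, because the values per array name no genes. Each ratio is already a difference within an array. No paired analysis was possible beyond that because values per array name no genes.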
